A study of Mus musculus with 7 samples.

Results

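Chondrogenic regulators and cartilage-type matrix genes were examined in follicular dendritic cells (FDCs), stromal cells that hold antigen for B cells within the follicle. The set was defined by gene symbol and had 10 listed genes: the transcription factors Sox9, Sox5 and Sox6, the hormone-like ligand Pthlh and its receptor Pth1r, and the matrix genes Coch, Cilp, Acan, Comp and Chad. Of these, 7 were measured among the 21176 genes of the deposited table, and Sox6, Acan and Chad were not analysed here. FDCs had been isolated by flow cytometry from the popliteal lymph nodes of male mice 8 to 12 weeks old that had not been immunized. WT samples (n = 4) were compared with samples labelled Ngfr KO (n = 3), a knockout of the gene of the p75 neurotrophin receptor. Every sample pooled nodes of several animals, and the design text calls the samples independent; p-values measure the spread between these pools. The labels name neither the sorting gate, nor the strain, nor whether Ngfr was deleted in all cells or in some. RNA was sequenced after SMART-Seq v4 amplification, a full-length cDNA method for small inputs.

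In cartilage, Sox9 switches on the genes of the extracellular matrix, and Sox5 and Sox6 act beside it as cofactors. Pthlh encodes parathyroid hormone-related protein, which acts through Pth1r, a receptor coupled to Gs and Gq proteins, and holds growth-plate chondrocytes in the proliferating state, in a loop with Indian hedgehog. Acan, Comp, Chad and Cilp encode structural proteins of cartilage, and Coch encodes cochlin, a matrix protein best known from the inner ear. Cochlin is also known as a product of FDCs.

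Sox9, Pthlh, Coch and Cilp were well covered, and all 4 rose in Ngfr KO, where limma called 18.3% of 8326 tested genes higher, 15.8% lower and 34.2% in either direction. The ratio of the group means was 4.53 for Coch, 4.19 for Pthlh, 2.40 for Sox9 and 2.07 for Cilp. Sox5, Pth1r and Comp lay below a normalised value of 1 in every sample and did not pass the filter of the limma test, 1 or more in 3 or more samples.

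The table gives 1 normalised value per gene and sample, and the recovered reads show that a value of 1 was worth 230 to 295 reads. Libraries held 17244925 to 18873542 reads in WT and 20741770 to 21538400 in Ngfr KO, so every Ngfr KO library was the deeper one (p = 0.0286 by exact permutation over 35 splits, two-sided, which cannot give less). After thinning of the reads to 1 common total, the 4 log2 changes lay within 0.01 of those at full depth. Thinned values kept the scale of their sample and most of their reads, so near-equal changes had to follow. Other effects of depth were not tested. Ngfr itself was covered by 97 to 298 reads in WT and 46 to 104 in Ngfr KO, at values of 0.377 to 1.30 and 0.184 to 0.353. The normalised values did not overlap, the read numbers did, and no Ngfr KO sample was free of Ngfr reads. Mitochondrial transcripts took 5.55% to 7.42% of the reads in WT and 3.14% to 4.97% in Ngfr KO. WT replicate 1 was the lowest in FDC markers, with a summed value of 1843 over 18 genes against 4016 to 5152 in the other WT samples. No call for Sox9, Pthlh, Coch or Cilp was lost without WT replicate 1.

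The FDC label was checked against its markers. Cr2, Cxcl13, Mfge8 and Clu, which mark FDCs, were present in every sample, with lowest values of 26.5, 859, 70.1 and 669, all in WT replicate 1. Markers of chondrocytes were low. Of 10 listed chondrocyte genes, 4 were measured (Col9a3, Col11a2, Hapln1 and Prg4) and the other 6 were not analysed here. The summed value of those 4 genes was 0.229 to 0.996 in the WT samples and 0.210 to 0.648 in Ngfr KO, and the groups overlapped. The highest of them was Hapln1, with a value of 0.630 from 162 reads in WT replicate 1.

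The promoters of Coch, Cilp and Pthlh are shown because these genes rose in the same samples. Sox9 rose as well but had no entry in the promoter set used here. The stretches below lie directly before the RefSeq transcript starts of Coch and Cilp (GRCm38.p6, chr12:51593091-51593340 and chr9:65264930-65265179, both on the plus strand). For Pthlh, the stretch (chr6:147264184-147264263, minus strand) is the longest part of the 250 bases before the RefSeq start at 147264013 that lies outside any exon of GENCODE M21. Sequences run 5′ to 3′, and capitals mark a TATAA match.
Coch: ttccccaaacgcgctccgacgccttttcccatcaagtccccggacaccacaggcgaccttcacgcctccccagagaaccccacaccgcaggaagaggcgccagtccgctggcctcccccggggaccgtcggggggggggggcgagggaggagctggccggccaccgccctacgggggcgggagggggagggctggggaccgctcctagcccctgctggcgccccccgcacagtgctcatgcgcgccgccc
Cilp: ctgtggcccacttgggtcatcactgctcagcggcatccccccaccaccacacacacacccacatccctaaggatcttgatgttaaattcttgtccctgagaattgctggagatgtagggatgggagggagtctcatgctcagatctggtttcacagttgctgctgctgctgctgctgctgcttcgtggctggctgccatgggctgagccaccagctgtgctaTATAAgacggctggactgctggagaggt
Pthlh: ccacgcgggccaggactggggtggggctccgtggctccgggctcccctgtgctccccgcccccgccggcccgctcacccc

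These promoters were not alike in composition. G and C made up 74.8% of the 250 bases before the Coch start and 75.2% of those before the Pthlh start, but 56.0% of those of Cilp, where the median of 32851 promoters was 52.4%. TATAA occurred 28 to 24 bases before the Cilp start and not in the windows of Coch or Pthlh, and 22.8% of all promoters held it on either strand. The letters ACAAT, the core of the site that SOX proteins bind, were searched on both strands and were in none of these 3 windows, against 27.7% of all promoters. The letters TGACG, a cAMP response half-site, were in none of the 3 either, against 17.8%, and the same held for the GLI letters GACCACCCA (0.225%) and the NF-κB consensus (3.90%). The window before 1 RefSeq start of Sox5 held an ACAAT match at 154 to 150 bases. The window before the Pth1r start at 110747145 held TGACG, read on the minus strand, at 161 to 157 bases. Pth1r has further RefSeq starts at 110743686 and 110742610, and the shares over all promoters are per window. The matches do not overlap in these windows, and the letters TATAA were chosen after the sequences were seen.

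Sox9, the central regulator of the set (ENSMUSG00000000567, chromosome 11, 112782224 to 112787760, plus strand, protein coding; GRCm38, GENCODE M21), had values of 0.584, 1.83, 3.25 and 3.69 in WT replicates 1 to 4. In Ngfr KO replicates 1 to 3 its values were 4.52, 6.16 and 6.14. Every Ngfr KO sample lay above every WT sample, and WT replicate 1 was the lowest, with 150 reads against 489 to 967 in the other WT samples. The mean rose from 2.34 ± 1.41 (SD, n = 4) to 5.61 ± 0.94 (SD, n = 3), a change of 1.09 on the log2(value + 1) scale (SE 0.31, limma adjusted p = 0.0181). The pseudocount of 1 is large against these values and understates the change, and with a pseudocount of 0.1 it was 1.48.

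The call for Sox9 depended on the setting. Without a filter on low values the limma adjusted p was 0.0939, and edgeR on the recovered reads gave a log2 change of 1.33 with an adjusted p of 0.0858. Leaving out Ngfr KO replicate 2 or 3 gave limma adjusted p-values of 0.0648 and 0.0569. Without WT replicate 1 the log2 change was 0.77 (limma adjusted p = 0.0227), and with a pseudocount of 5 it was 0.55.

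Sox5, the measured cofactor of Sox9 (ENSMUSG00000041540, chromosome 6, 143828425 to 144781977, minus strand), had values of 0.292, 0.865, 0.443 and 0.599 in WT replicates 1 to 4. Its Ngfr KO values were 0.881, 0.692 and 0.757. WT replicate 2 lay within the Ngfr KO range, so the groups overlapped. The difference was not larger than the spread between replicates (exact two-sided permutation test, p = 0.200; edgeR log2 change 0.57, adjusted p = 0.365). Several antisense transcripts lie within the Sox5 locus.

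Pthlh, the ligand (ENSMUSG00000048776, chromosome 6, 147252101 to 147264183, minus strand, protein coding), had values of 11.3, 34.5, 43.1 and 26.7 in WT replicates 1 to 4. In Ngfr KO the values were 111.7, 141 and 110.9. The groups were far apart, with the lowest Ngfr KO sample, at 110.9, well above the highest WT sample, at 43.1. The mean rose from 28.9 ± 13.5 (SD, n = 4) to 121 ± 17 (SD, n = 3), by 2.17 on the log2(value + 1) scale (SE 0.36, limma adjusted p = 0.00134). Its change ranked 24 among 8326 tested genes, counted from the highest.

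Pth1r, the receptor of that ligand (ENSMUSG00000032492, chromosome 9, 110722085 to 110747145, minus strand), was nearly undetected. Its reads numbered 20, 4, 15 and 15 in the WT samples and 0, 11 and 0 in Ngfr KO. The groups overlapped, because Ngfr KO replicate 2 had more reads than WT replicate 2. The 2 libraries without reads allow a value of up to 0.0109 and 0.0120, which 3 reads would give there. Relative to all reads, Pth1r was 4.37 times more frequent in WT (exact 95% interval 2.26 to 9.27, counting error only). The difference did not pass the tests over samples (exact two-sided permutation test on log2(value + 1), p = 0.114; edgeR adjusted p = 0.423), where Ngfr KO replicate 2 held all 11 reads of its group. The gene shares its locus with Myl3 on the opposite strand, and whether the counting used strand is not given in the sources used here.

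Coch (ENSMUSG00000020953, chromosome 12, 51593341 to 51605771, plus strand, protein coding) had values of 23.8, 14.96, 28.2 and 44.3 in WT replicates 1 to 4. The Ngfr KO values were 125.6, 96.2 and 156. The groups did not overlap, and the lowest WT sample was replicate 2, unlike for Sox9, Pthlh and Cilp, where it was replicate 1. The mean rose from 27.8 ± 12.3 (SD, n = 4) to 126 ± 30 (SD, n = 3), by 2.21 on the log2 scale (SE 0.31, limma adjusted p = 6.39e-04). Its change ranked 22 of 8326, close to that of Pthlh, and the order of the pair turned without WT replicate 2 (1.96 for Coch against 2.30 for Pthlh), WT replicate 3, Ngfr KO replicate 1 or Ngfr KO replicate 3.

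Cilp, which encodes the cartilage intermediate layer protein (ENSMUSG00000042254, chromosome 9, 65265180 to 65280605, plus strand, protein coding), had values of 11.1, 26.5, 24.9 and 32.7 in WT replicates 1 to 4. The values in Ngfr KO were 37.0, 54.3 and 56.2. The groups did not overlap, but WT replicate 4 lay close below Ngfr KO replicate 1. The mean rose from 23.8 ± 9.1 (SD, n = 4) to 49.2 ± 10.6 (SD, n = 3), by 1.09 on the log2 scale (SE 0.31, limma adjusted p = 0.0194). edgeR called Cilp higher as well (adjusted p = 0.0431), as it did 8.67% of the 16751 genes it tested, but limma without a filter did not (adjusted p = 0.0879), nor did the fits without Ngfr KO replicate 2 (0.0688) or replicate 3 (0.0564).

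Comp, a pentameric protein of cartilage and tendon (ENSMUSG00000031849, chromosome 8, 70373558 to 70382066, plus strand), moved the other way at very low levels. Its reads numbered 23, 10, 51 and 21 in the WT samples and 2, 0 and 0 in Ngfr KO. The genotypes did not overlap, and such a lower, non-overlapping order was seen in 13.1% of all genes of the table. Relative to all reads, Comp was 46.7 times more frequent in WT than in Ngfr KO (exact 95% interval 12.6 to 391, which covers counting error only). edgeR called it lower (adjusted p = 0.0398), where 6.55% of the 16751 genes it tested were called lower. The exact two-sided permutation test on log2(value + 1) gave p = 0.0571, and limma without a filter gave an adjusted p of 0.118.

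**Figure D1:**
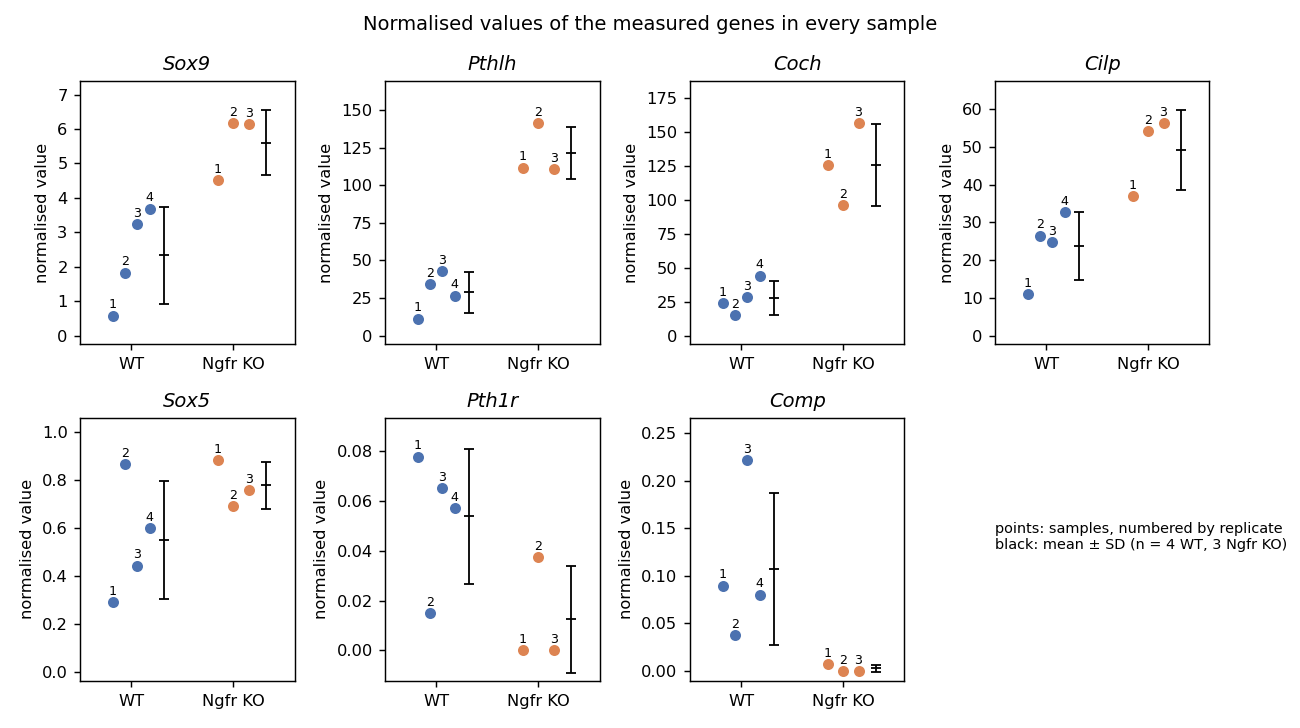
Normalised value (vertical axes, linear, a separate scale per gene) of each measured gene in the 4 WT and 3 Ngfr KO samples. Points are samples numbered by replicate, and black bars are the mean ± SD. Sox9, Pthlh, Coch and Cilp do not overlap between genotypes and are higher in Ngfr KO, Comp is lower and near 0, and Sox5 and Pth1r overlap.

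In the plot of values by sample, the 4 tested genes are separated by genotype. Non-overlapping groups with Ngfr KO higher were seen in 22.6% of the tested genes. By rank of log2 change the 4 genes stood above 96.2% to 99.7% of the genes tested. No gene of the set was called lower by limma, which did not test Sox5, Pth1r or Comp. edgeR called Comp lower.

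**Figure D2:**
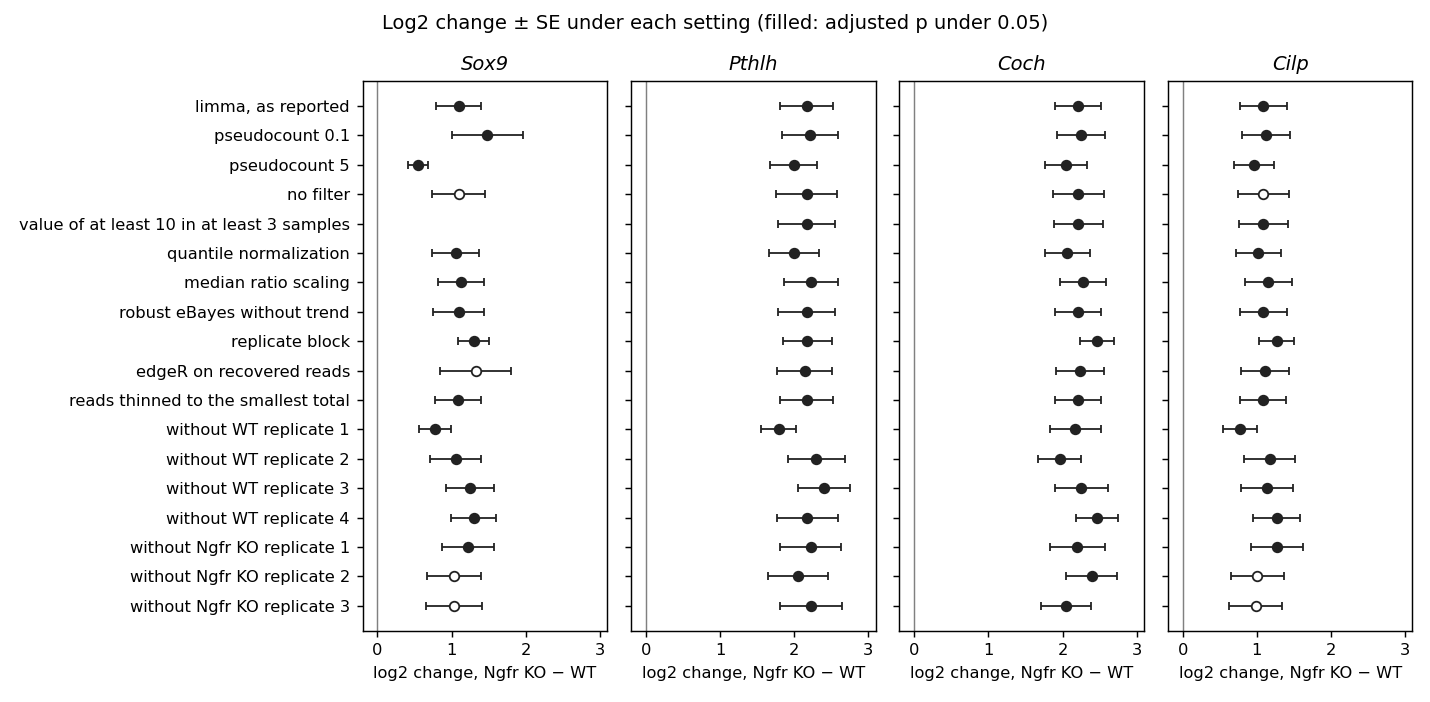
Log2 change of Ngfr KO minus WT (horizontal axes, ± SE) for the 4 tested genes under the reported fit and each alternative. Filled points have an adjusted p under 0.05. Pthlh and Coch stay filled throughout, and Sox9 and Cilp open without a filter and without Ngfr KO replicate 2 or 3; Sox9 is also open with edgeR, and it has no point under the stricter filter, which it did not pass.

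Levels of different genes were compared per kilobase of merged exon length (GENCODE M21), since longer transcripts gather more reads. In WT, Pthlh had a value of 17.9 ± 8.3 per kilobase, Coch 9.28 ± 4.10 and Cilp 5.59 ± 2.14 (SD, n = 4 each). These ranges overlapped between neighbours, with 6.99 to 26.6 for Pthlh, 4.99 to 14.8 for Coch and 2.61 to 7.68 for Cilp. Sox9 came next at 0.141 to 0.892 per kilobase, below every Cilp value. Sox5, Comp and Pth1r lay between 0.00512 and 0.0747 and overlapped with one another. In Ngfr KO the same order was found with no overlap down to Sox5: Pthlh had 68.5 to 87.1 per kilobase and Coch 32.1 to 52.2. Cilp had 8.70 to 13.2, Sox9 1.09 to 1.49 and Sox5 0.0481 to 0.0613. The ligand Pthlh stood at a mean of 17.9 per kilobase in WT and 74.9 in Ngfr KO, beside 0.0184 and 0.00425 for its receptor.

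Ratios between the 4 rising genes were compared within samples. The log2 ratio of Pthlh to Cilp was -0.29 to 0.80 in the WT samples and 0.98 to 1.59 in Ngfr KO, without overlap (exact two-sided permutation test, p = 0.0571, adjusted p = 0.343 over the 6 ratios). The mean difference was 1.09. For Coch to Cilp the log2 ratio averaged 0.22 ± 0.80 over the WT samples (SD, n = 4), against 1.36 ± 0.48 over the Ngfr KO samples (SD, n = 3), and the groups overlapped. The Sox9 to Cilp ratio was -4.25 to -2.94 in the WT samples and -3.19 to -3.03 in Ngfr KO. The Pthlh to Coch ratio, with means of 0.00 ± 1.08 and -0.04 ± 0.54, spread widely in both genotypes. None of the 6 ratios passed the adjusted exact test, whose lowest adjusted p was 0.343.

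The members were then set beside the rest of the FDC signature, because FDC markers also rose. Of 18 listed FDC genes, all were tested, 14 were called higher and 1 lower (the leptin receptor gene Lepr), with a median log2 change of 1.36 against 0.02 over all tested genes. Of all tested genes, 18.3% were called higher and 15.8% lower. The 3 FDC genes without a call were Cxcl13, Ltbr and Tnfrsf1a. The summed value of the list was 1843 to 5152 in the WT samples and 7985 to 10494 in Ngfr KO. Cxcl13 alone, much of the sum, had 859 to 2905 and 2352 to 5277, which overlapped (limma adjusted p = 0.180). The mean log2(value + 1) over the list was 4.82 ± 0.45 over the WT samples (SD, n = 4), against 6.17 ± 0.12 over the Ngfr KO samples (SD, n = 3). In bulk RNA, fewer cells of a type and less RNA per cell cannot be told apart.

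Relative to that FDC mean, Sox9 and Cilp no longer lay higher in Ngfr KO. Sox9 differed by -0.26 and Cilp by -0.27, and the groups overlapped (exact two-sided permutation tests, p = 0.314 and 0.257). Pthlh stayed higher by 0.81, at -0.52 to 0.37 in the WT samples and 0.63 to 0.85 in Ngfr KO, without overlap (exact two-sided permutation test, p = 0.0571). Coch stayed higher by 0.86, but Ngfr KO replicate 2, at 0.31, lay within the WT range of -0.96 to 0.49 (exact two-sided permutation test, p = 0.171). This scale was chosen after the data were seen, and a missed threshold with 7 samples does not show that a gene followed the list. The scale also carries the pseudocount of 1, which understates the change of the low gene Sox9. By edgeR on recovered reads, the log2 change was 1.33 for Sox9, and its median over the 18 FDC genes was 1.41.

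Other cell types moved with genotype too. All 12 tested endothelial genes were called lower, beside 15.8% of all tested genes. The summed value of the 14 listed endothelial genes was 191 to 291 in the WT samples and 32.9 to 66.8 in Ngfr KO. The reticular fibroblast list summed to 97.2 to 231 and 259 to 372. It had 4 of 9 tested genes called higher, among them Dcn and Ccl19, beside 18.3% of all tested genes. Dcn alone had 37.5 to 69.3 in the WT samples and 151 to 248 in Ngfr KO, much of the sum. Ccl21a (6.81 to 73.5 against 3.26 to 19.7), Col1a1, Col3a1 and Lum overlapped between genotypes. The lists of pericytes and smooth muscle (20.9 to 55.2 against 42.3 to 71.3) and B cells (14.7 to 21.8 against 14.2 to 32.9) overlapped between genotypes. So did T cells (4.59 to 14.7 against 6.31 to 13.7) and myeloid cells (2.18 to 9.99 against 6.51 to 38.4). No measured marker of these lists was at 0 in all samples. The part of these lists in the rise of Sox9, Pthlh, Coch and Cilp was not tested.

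**Figure D3:**
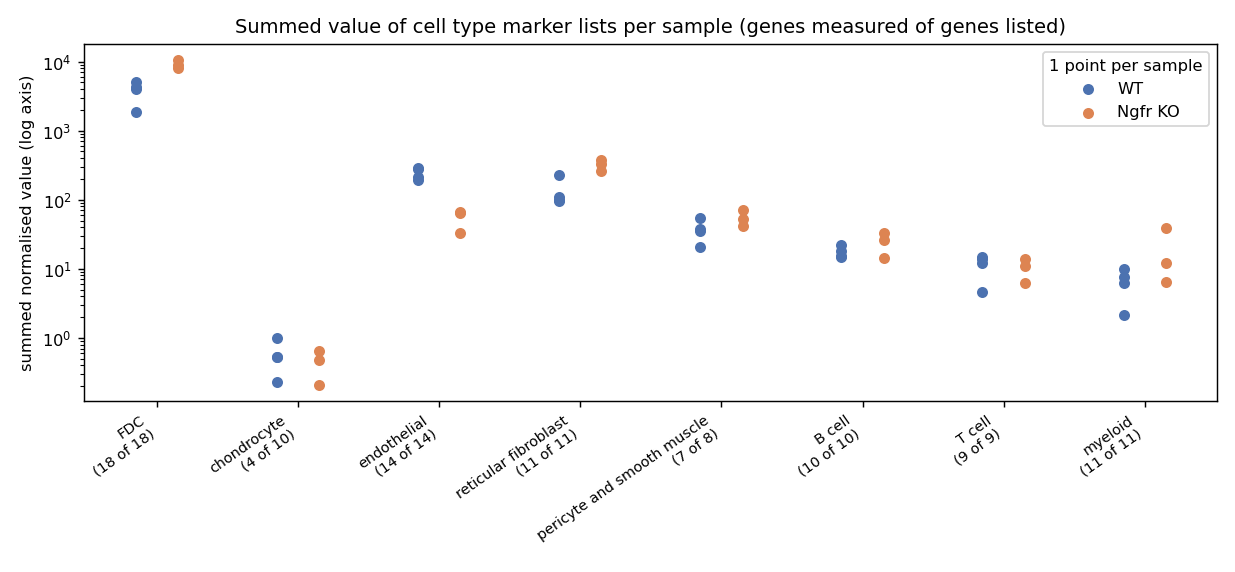
Summed normalised value of 8 cell type marker lists (vertical axis, log scale) per sample, with the number of measured genes out of those listed. The FDC list lies higher in all Ngfr KO samples (7985 to 10494 against 1843 to 5152), the endothelial list lower, and the chondrocyte list stays below 1 in every sample.

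Around the members, 5 lists of related genes were examined, which hold 113 genes, of which 80 were measured and 37 tested. Limma called 6 of the 37 higher (16.2%) and 18 lower (48.6%), beside 18.3% and 15.8% of all 8326 tested genes. Of the called genes, Foxc1, Sox7, Sik3 and Crtc2 lay below 1 in every Ngfr KO sample and passed the filter through WT alone. Mmp3 lay below 1 in every WT sample and passed through Ngfr KO alone. The direction of such genes was tied to the filter. To pass through 1 group, a gene needed 3 of 4 WT samples or all 3 Ngfr KO samples. The share called higher was near that of all genes, and the counts of each list below stand against the same shares.

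Among cartilage matrix genes, 30 were listed, 18 measured and 6 tested, of which 2 were called higher and 2 lower. Papss2, which makes the sulphate donor for proteoglycans, had values of 3.07 to 5.11 in the WT samples and 8.75 to 12.4 in Ngfr KO, which made a change of 1.21 in log2 units (SE 0.18, limma adjusted p = 8.74e-04). Col9a2, a chain of cartilage collagen IX, rose from 0.187 to 1.01 in WT to 1.15 to 2.10 in Ngfr KO, which made a change of 0.86 in log2 units (SE 0.20, limma adjusted p = 0.00687). Its partner chain Col9a3 was not tested by limma, with 0 to 30 reads in WT and 35 to 83 in Ngfr KO. For Col9a3, edgeR made no call (log2 change 1.84, adjusted p = 0.278). Prelp, a leucine-rich proteoglycan, went the other way, from 4.07 to 9.0 in WT down to 0.444 to 1.33 in Ngfr KO, which made a change of -1.97 in log2 units (SE 0.23, limma adjusted p = 3.20e-04). Csgalnact1, an enzyme of chondroitin sulphate synthesis named after its values were seen, was called lower (limma adjusted p = 0.0222) with overlapping groups. That call was lost without a filter, with edgeR, and without WT replicate 1 or Ngfr KO replicate 3, and its adjusted p reached up to 0.0926 over these settings. Col27a1 (log2 change -0.52, limma adjusted p = 0.0574) and Xylt1 (-0.03, adjusted p = 0.902) were not called.

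Of the chondrogenic regulators outside the Sox family, 27 were listed, 19 measured and 10 tested, with 1 called higher and 4 lower. Arid5a, a partner of Sox9 on chondrocyte genes, rose from 1.43 to 2.88 in WT to 4.04 to 4.82 in Ngfr KO (log2 change 0.80, limma adjusted p = 0.00521). Its relative Arid5b had a log2 change of -0.57 (limma adjusted p = 0.0460), a call that was kept in 5 of 16 alternatives. Nfatc1 (-0.91), Zbtb20 (-0.88) and Foxc1 (-0.85) were lower, with limma adjusted p-values from 0.00320 to 0.00461. Foxc2 and Nfatc2 did not pass the filter, and edgeR called both lower (adjusted p = 0.00638 and 0.00617). The endothelial list fell in the same libraries, and its part in the values of these genes was not tested. Mef2c, Trps1 and Hdac4, which regulate chondrocyte maturation, had log2 changes of -0.33, 0.00 and 0.14 and were not called (limma adjusted p = 0.154 to 0.991).

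Within the Sox family, all 3 other genes that could be tested were lower. Sox18 had values of 3.62 to 5.03 in the WT samples and 0.581 to 1.75 in Ngfr KO (log2 change -1.31, limma adjusted p = 8.86e-04). Sox7 had 1.10 to 2.91 and 0.348 to 0.673 (log2 change -0.96, limma adjusted p = 0.00548), and both genes are known as regulators of endothelial cells. Sox4 had a log2 change of -0.72 (limma adjusted p = 0.0274), with a limma adjusted p of up to 0.104 over its alternatives. It was not called by edgeR, with the replicate block, without a filter, or without Ngfr KO replicate 1 or 3. Sox8, the closest measured relative of Sox9, reached 0.171 to 0.641 in the WT samples and 0.628 to 1.93 in Ngfr KO, was not tested by limma, and edgeR made no call (adjusted p = 0.0558). The other measured members, Sox11, Sox12, Sox13 and Sox17, stayed at or below a value of 0.176, and edgeR called none of them. The endothelial list fell from 191 to 291 in WT to 32.9 to 66.8 in Ngfr KO in the same libraries, and its part in the Sox7 and Sox18 values was not tested.

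The list of the PTHrP and hedgehog axis had 28 genes, of which 23 were measured, 11 tested, none called higher and 6 lower. These were mainly genes that act below receptors such as Pth1r. Gnas, which encodes the stimulatory G protein subunit, fell from 13.8 to 25.0 in WT to 8.30 to 10.6 in Ngfr KO (log2 change -0.98, SE 0.22, limma adjusted p = 0.00657). Prkacb, a catalytic subunit of protein kinase A, had a log2 change of -0.77 (limma adjusted p = 0.00548), and Sik3, a kinase restrained by protein kinase A, one of -0.54 (limma adjusted p = 0.00962). Gnaq (-0.66), Sik1 (-0.67) and Crtc2 (-0.45) were also called lower, but lost the call with edgeR, without a filter and in 3 or 4 of the 7 fits that left out 1 sample. Prkar1a, Creb1 and Gna11 were not called. Of the hedgehog pathway, Hhip and Sufu passed the filter and were not called (limma adjusted p = 0.355 and 0.921), and the targets Gli1 and Ptch1 had at most 57 and 432 reads and were not called by edgeR. Smo, the signal transducer of the pathway, had 0.834 to 1.52 in the WT samples and 0.383 to 0.588 in Ngfr KO, and was called lower by edgeR (adjusted p = 0.0429). The endothelial list fell in the same libraries, and its part in these values was not tested.

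Among 12 genes that degrade cartilage matrix or inhibit its degradation, 7 were tested, 3 were called higher and 3 lower. The protease gene Htra1 rose from 3.29 to 13.3 in WT to 21.9 to 27.5 in Ngfr KO, a log2 change of 1.44 (limma adjusted p = 0.00720). Timp1, an inhibitor of metalloproteinases, rose from 1.4 to 2.06 in the WT samples to 2.6 to 8.75, a log2 change of 1.15 (limma adjusted p = 0.00719). The other inhibitors Timp3 (-1.14) and Timp2 (-0.80) and the aggrecanase-related Adamts1 (-1.53) were lower, with limma adjusted p-values from 0.00408 to 0.00982. Mmp3 rose by 1.25 (limma adjusted p = 0.00258), but WT replicate 4 held 227 reads and the other WT samples 0 to 11, and edgeR did not call it (adjusted p = 0.119). The calls of Htra1, Timp1 and Adamts1 were lost without a filter. Mmp9 was not called (log2 change 0.57, limma adjusted p = 0.0700).

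**Figure D4:**
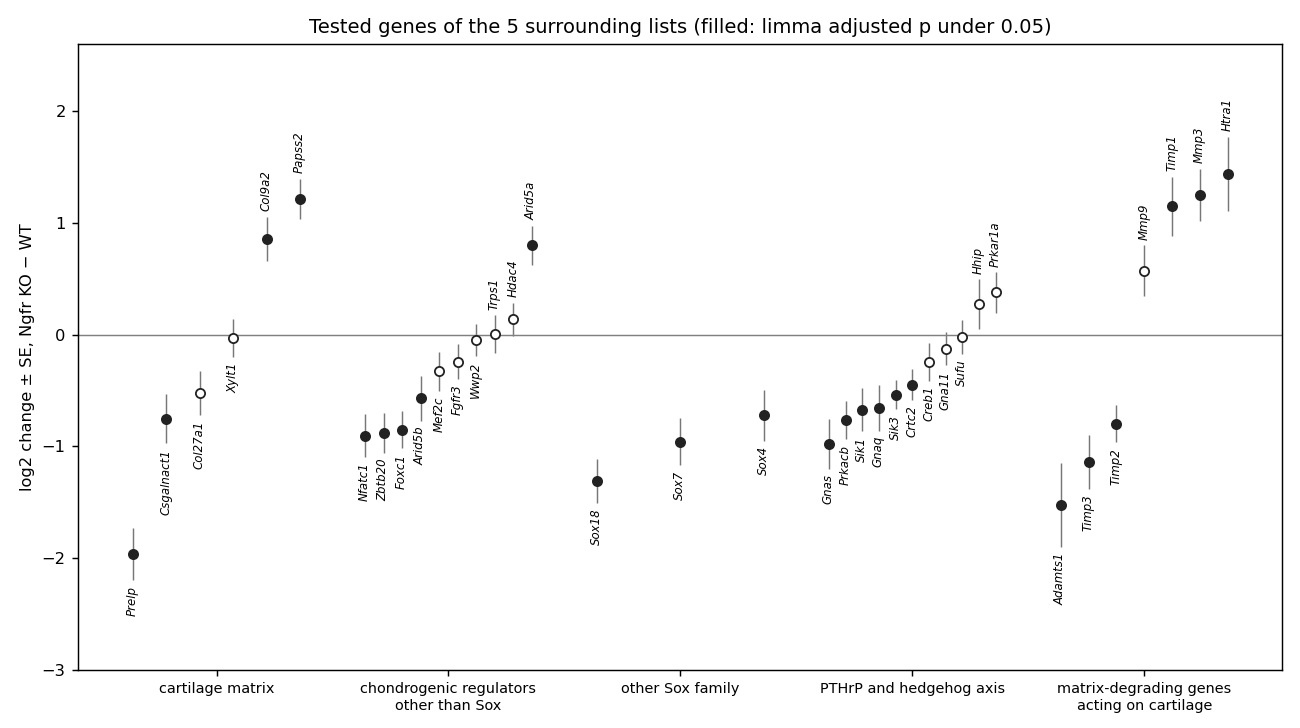
Log2 change of Ngfr KO minus WT (vertical axis, ± SE) for the 37 tested genes of the 5 surrounding lists, 1 point per gene. Filled points have a limma adjusted p under 0.05: 6 lie above 0 and 18 below.

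Genes with the profile most like each main member were found by the mean absolute difference of log2(value + 1) over the 7 samples, after each gene was centred on its own mean. Nearest to Sox9 were Plpp3 (0.09), Aqp4 (0.11), Lmna (0.13), Gm8773 (0.14) and Tsc22d4 (0.14), where the median over all tested genes was 0.61. Plpp3 encodes a phosphatase that degrades lysophospholipids, Aqp4 a water channel and Lmna the nuclear lamins A and C. Plpp3 had values of 9.62 ± 4.10 over the WT samples (SD, n = 4), against 23.2 ± 3.6 over the Ngfr KO samples (SD, n = 3). All 5 shared with Sox9 a lowest value in WT replicate 1.

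Nearest to Pthlh were Rnd3 (0.10), Prnp (0.13), Cd200 (0.13), Tesc (0.14) and Fcgr2b (0.16), against a median of 1.06 over all tested genes. Prnp, the prion protein gene, and Fcgr2b, the inhibitory Fc receptor, belong to the FDC list. Rnd3 had values of 14.1 ± 7.3 over the WT samples (SD, n = 4), against 55.4 ± 12.9 over the Ngfr KO samples (SD, n = 3). For Coch the nearest genes lay farther away, from 0.24 for Dcn, the decorin gene, to 0.35 for Slc7a6. Kif21a (0.31), Serping1 (0.32) and Serpina3i (0.34) lay between, and Serpina3i is uncertain because it has near-identical paralogs. The lowest value of each of these 5 genes was in WT replicate 1, whereas that of Coch was in WT replicate 2. All genes named for their profile were chosen by their values and carry no test.

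**Figure D5:**
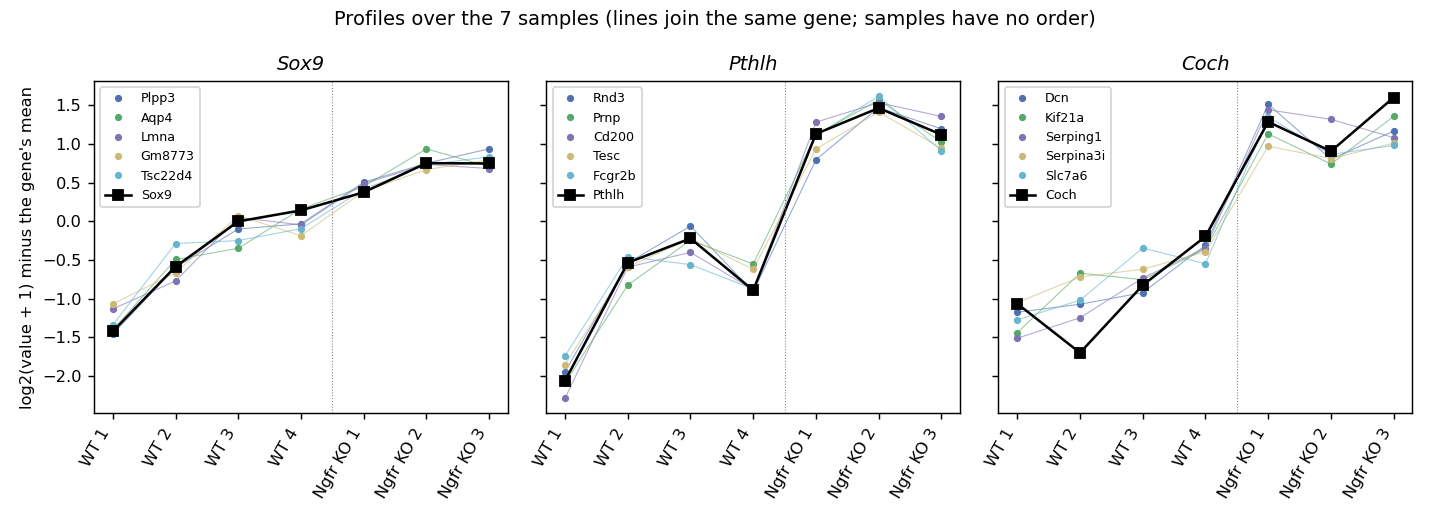
Profiles of Sox9, Pthlh and Coch (black) and the 5 nearest genes of each (colours) over the 7 samples, as log2(value + 1) minus the mean of the gene (vertical axis). WT replicate 1 is lowest for Sox9 and Pthlh and their nearest genes, and the Coch profile is lowest in WT replicate 2.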

How the data were processed

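The signal values deposited by the authors form 1 table, a column for each of 7 samples; its name calls the values TMM, a scaling by library size and composition. Demultiplexing used bcl2fastq 2.20.0.422 and the build was mm10, per the submitters' processing notes; aligner, counter and annotation are not given in the sources used here. In every sample 100% of values were whole multiples (within 0.05 reads) of 1 step per sample, so reads were recovered by division. Ngfr KO was compared with WT by limma 3.58.1 (R 4.3.3, lmFit, eBayes with trend) on log2(value + 1), keeping genes at 1 or more in 3 or more samples, with Benjamini-Hochberg adjustment over 8326 genes and calls under 0.05. No column was left unmapped. Single values were also tested by exact two-sided permutation over 35 splits. edgeR 4.0.16 (quasi-likelihood, filterByExpr, TMM) was run on recovered reads as an alternative; it called 2551 of 16751 genes. Both fits were tested on simulated data. Coordinates and exon lengths are from GENCODE M21 (GRCm38), promoters from RefSeq (GRCm38.p6), where 5 of the 7 measured genes had an entry. The members and lists were chosen with earlier results of these data known. Named genes are the members, in each list the called genes with non-overlapping groups (up to 8) and up to 3 uncalled ones of highest level, and the 5 nearest profiles of Sox9, Pthlh and Coch; any other gene was picked with its values known. Some listed genes were not analysed here, and 1 of the 9 cell type lists is not reported here. Molecular identifiers are not mentioned, so intervals and floors cover counting error only.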

Additional observations from a re-analysis of the deposited data

Results flagged for a closer look

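In 1 of 19 checks of the 4 WT samples, the outermost sample lay far from the others by Dixon's criterion, where chance gives 0.95. The summed value of the reticular fibroblast list reached 231 in WT replicate 4, where WT replicates 1 to 3 had 97.2 to 109; this gap is 0.909 of the whole range. In that replicate Ccl21a, a chemokine gene of the list, stood at 73.5, and at 6.81 to 16.9 in WT replicates 1 to 3, while Ccl19 stood at 52.6 and at 20.1 to 33.4. Without WT replicate 4 the log2 changes were 1.30 for Sox9, 2.18 for Pthlh, 2.46 for Coch and 1.27 for Cilp, and limma called all 4 higher.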

How the results depend on the processing

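Pthlh and Coch kept their direction and call in all 17 alternative settings, with log2 changes of 1.79 to 2.40 and 1.96 to 2.46. Sox9 kept its direction in all 16 settings that gave it a value and its call in 12, and Cilp kept them in 17 and 14. The log2 change of Sox9 was 1.09 (adjusted p = 0.0939) without a filter and 1.33 (0.0858) with edgeR, and that of Cilp 1.09 (0.0879) without a filter. With 1 sample left out, Sox9 ranged from 0.77 to 1.30, Cilp from 0.78 to 1.28, Pthlh from 1.79 to 2.40 and Coch from 1.96 to 2.46, and the number of members called from 2 to 4. Without a filter 2 members were called. Sox9 could not be fitted under the stricter filter. Under edgeR the log2 changes of Sox5, Pth1r and Comp were 0.57, -1.93 and -5.14. The scale relative to the FDC list was added after the data were seen. On it, Sox9 stood at -0.26 and Cilp at -0.27, of reversed sign but with overlapping groups. Its pseudocount of 1 understates the change of Sox9. Pthlh stood at 0.81 and Coch at 0.86, neither under 0.05 by the exact permutation test. The stricter filter, 10 or more in 3 or more samples, called 535 of 1297 genes, against 2844, and 5 of the 6 tested genes of the surrounding lists, against 24, since fewer genes were tested. Leaving out 1 sample gave 1614 to 3006 genes, with 1870 without WT replicate 1, 1803 without Ngfr KO replicate 1 and 1614 without Ngfr KO replicate 2, and 18 to 25 genes of the lists. For the remaining shifts the cause was not tested. The labels do not say that replicate numbers pair samples, and correlations of same-numbered deviations were 0.298, -0.059 and -0.011. With the replicate block the log2 changes were 1.30 for Sox9, 2.18 for Pthlh, 2.46 for Coch and 1.27 for Cilp, all called, with WT replicate 4 unpaired. An unpaired sample adds nothing to the blocked estimate, so these log2 changes equal those without WT replicate 4 by construction. Pth1r and Comp had at most 20 and 51 reads in any sample, so their values rest on few reads.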

Other observations

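Nkx3-2, a chondrogenic transcription factor that was listed but tested by neither limma nor edgeR, was picked with its values known. It had 0 reads in all 4 WT libraries and 3, 9 and 5 reads in Ngfr KO replicates 1 to 3. Those reads gave values of 0.0109, 0.0305 and 0.0200. In WT, 0 reads allow up to 0.0112 to 0.0130, which 3 reads would give there, so the split rests on few reads. Sequencing was also deeper in Ngfr KO (20741770 to 21538400 reads) than in WT (17244925 to 18873542). How often genes this low split by genotype was not counted. Hapln1, the link protein gene that joins aggrecan to hyaluronan, had 47 to 162 reads in WT and 11, 106 and 1 in Ngfr KO. The groups overlapped, and edgeR did not call it (adjusted p = 0.436).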
